A study of Homo sapiens with 12 samples.

Results

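The PDGF, KIT and VEGF receptors were examined together with the PDGF ligands in Rh30 cells, an established human alveolar rhabdomyosarcoma line that carries the PAX3-FKHR fusion gene. The members are 5 receptors (PDGFRA, PDGFRB, KIT, KDR and FLT1) and 3 ligands (PDGFA, PDGFB and PDGFD), taken as every gene probe of the array whose gene name is one of these symbols. This gave 12 probes for 8 genes, out of 41000 gene probes and 19538 gene symbols on the array. RNA of 3 cultures was compared on 12 Agilent arrays that read 2 dyes each, and the question was which transcripts depend on PAX3-FKHR.

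WT was the parental Rh30 line, grown without puromycin. CON was a single stable clone of Rh30 that carried a non-targeting shRNA, and KD1 was a single stable clone that carried an shRNA against PAX3-FKHR. Both clones had been made with the retroviral vector pSUPER.retro.puro and were kept in 1 µg/mL puromycin, so that each differed from WT by the vector, the selection and the cloning as well as by its shRNA. All cells were plated, grown for 24 h and lysed for total RNA, of which 500 ng was labelled. There were 2 biological replicates of each culture, and each of the 6 RNA extracts was hybridised on 4 arrays. The clones were compared with each other and with WT, every comparison in both replicates with the dyes in both orientations. The 3 comparisons share extracts, so that their values are given side by side and are not independent of each other. A second knockdown clone was not on these arrays.

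PDGFRA and PDGFRB are receptor tyrosine kinases that dimerise when they bind PDGF, and they drive the growth and migration of mesenchymal cells. PDGF-A binds PDGFRA, PDGF-B binds both receptors, and PDGF-D acts mainly on PDGFRB. KIT, the receptor of stem cell factor, belongs to the same structural class, and KDR and FLT1 are the VEGF receptors best known from endothelium. In alveolar rhabdomyosarcoma, PDGFRA has been studied as a receptor downstream of the fusion protein.

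The probes that carried the measurements are shown by their sequence, because most genes had a single probe and a value speaks only for the transcripts that this probe can bind. Coordinates are those of the array file, on build NCBI36. PDGFA was read on chr7:503455-503514, minus strand, PDGFRB on chr5:149473657-149473716, minus strand, PDGFRA on chr4:54858746-54858805, plus strand, and KIT on chr4:55301268-55301327, plus strand. For these 4 probes the first 30 of 60 bases are given, 5′ to 3′.
PDGFA: gtttacctaatattacctgttttgtatacc
PDGFRB: actcacgttaactcacatttatacagcaga
PDGFRA: ccttaaaatgtggtctgccaatctgtacaa
KIT: aaagtggttgttagttatagatgtctaggt
1 probe of KDR and 1 probe of FLT1 are given whole. The KDR probe lay on the minus strand at chr4:55643555-55648585, a span of 5031 bases for 60 probe bases, so that it crosses an intron. The FLT1 probe lay at chr13:27869129-27869188, also on the minus strand.
KDR: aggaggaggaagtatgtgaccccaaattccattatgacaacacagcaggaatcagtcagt
FLT1: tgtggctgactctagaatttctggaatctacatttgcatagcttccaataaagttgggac
All sequences are in lower case, since no stretch of them is singled out by the data. Of the other members, PDGFB was read at chr22:37950045-37950104 and PDGFD at chr11:103283596-103283655. PDGFB had the probe richest in G and C, at 55.0% of bases, and the other 11 member probes held between 31.7% and 45.0%.

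The share of spots that the scanner software called well above background was 71.1% to 73.6% in Cy3 and 64.4% to 67.8% in Cy5, no gene spot was saturated, and 95 to 188 spots an array were set aside by outlier flags. The limit set by the negative controls, the 99th percentile of their background-subtracted signal, ranged from 1.81 to 40.6 scanner units between channels, so that the same dim signal could pass on one array and fail on another. The muscle markers MYOD1, DES and MYOG were well above background on all 8 arrays of WT, of CON and of KD1. Of the 10 muscle and rhabdomyosarcoma markers, 9 were well above background in all 24 channels. Markers of the cell types in which these receptors are best known were not all silent. Well above background in all 24 channels were 5 of 8 endothelial, 4 of 8 fibroblast and pericyte, and 1 of 6 mast and blood cell markers. For comparison, 24193 of the 41000 gene probes (59.0%) were well above background in all 24 channels. The markers were read by the brightest probe of each gene, so that this share is not a matched one. Whether the marker counts differ from this share was not tested. The study measured the fusion in KD1 by RT-PCR and Western blot, found it lowered, and describes this stable knockdown as partial. On these arrays the fusion transcript itself has no probe. It was read only through its 2 parent genes, whose probes also bind the normal transcripts. For PAX3, by its brightest probe, KD1 stood at -0.42 ± 0.04 against CON and at -0.39 ± 0.08 against WT (log2 ratio, SD, n = 2). For FOXO1 these values were -0.42 ± 0.23 and -0.60 ± 0.26. All 4 arrays of each KD1 comparison lay below 0 for both of these probes, and none of these differences passed the test (limma, adjusted p between 0.272 and 0.432). The other PAX3 probes had smaller means, of -0.28 and -0.09 against CON and of -0.25 and 0.06 against WT. The other FOXO1 probe had -0.39 against CON and -0.30 against WT, and none of these was called.

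PDGFA and PDGFRB were the members with a clear signal. Both were well above background in 24 of 24 channels, in all 3 cultures and in both dyes. PDGFB and PDGFD were dim, and PDGFRA, KIT, KDR and FLT1 did not rise well above background in any channel. The 8 probes of those 4 receptors thus gave no level, and no fold is given for them; for comparison, 8394 of the 41000 gene probes (20.5%) were not well above background in any channel.

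**Figure D1:**
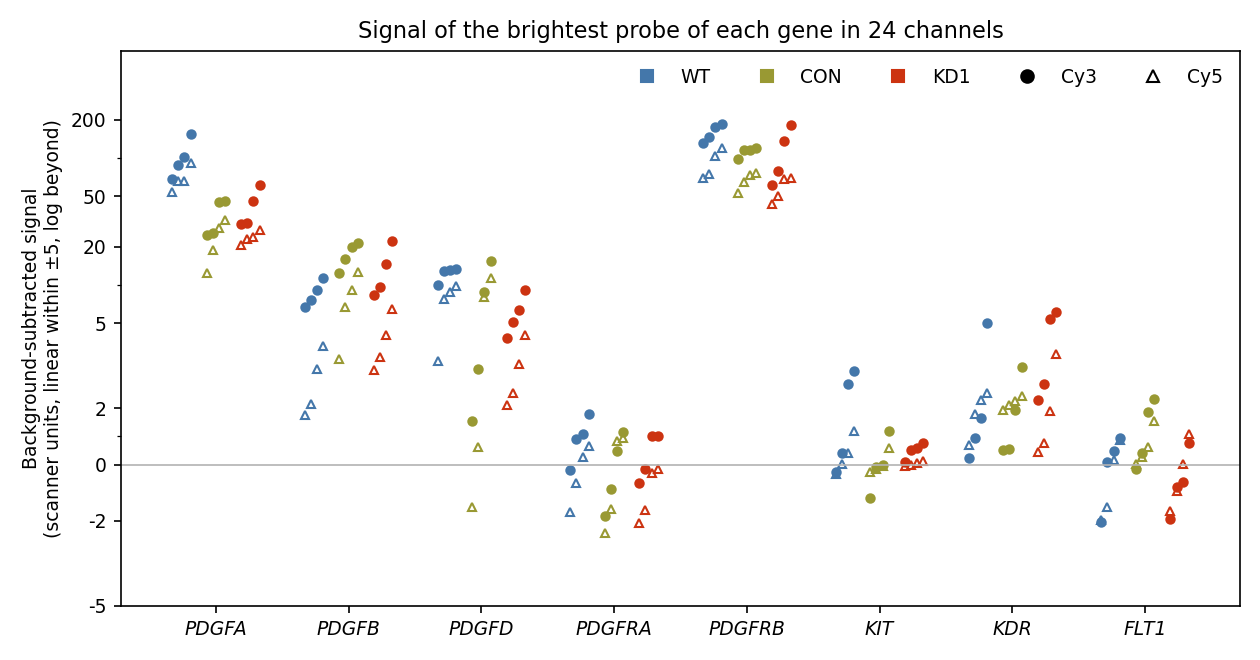
Background-subtracted signal of the brightest probe of each member in all 24 channels, in scanner units, on an axis that is linear within ±5 and logarithmic beyond. Colour gives the culture, filled circles are Cy3 and open triangles Cy5. The signal is not normalised between dyes or arrays, so that heights show detection and do not measure differences between cultures or between genes. PDGFA lay at 12.6 or above and PDGFRB at 43.4 or above in every channel, while PDGFRA, KIT and FLT1 were spread around 0.

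Among the ligands, PDGFA had its highest values in WT, above both puromycin-selected clones, and of these differences the one from CON passed the test. The log2 ratio of WT over CON was 1.104 in replicate 1 and 2.30 in replicate 2, and that of KD1 over WT was -1.51 and -1.56. KD1 over CON gave -0.43 in replicate 1 and 0.55 in replicate 2. The 4 arrays of WT vs CON all lay above 0, from 1.05 to 2.63, the 4 arrays of KD1 vs WT all lay below 0, from -1.87 to -1.24, and those of KD1 vs CON had 2 on each side.

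The mean difference of PDGFA between WT and CON was 1.70 ± 0.85 on the log2 scale (SD, n = 2), or 3.25-fold, with a limma standard error of 0.30 and an adjusted p of 0.0497. That standard error was pooled over the 3 comparisons and moderated over all tested probes, and does not follow from this SD alone. PDGFA in WT vs CON was the only call among the members. In bulk RNA, fewer cells that express a gene and less RNA in each cell cannot be told apart. In WT vs CON 1.42% of all tested probes were called, 377 of 26566, and of the members only PDGFA and PDGFRB passed the filter on dim probes and were tested. The call was at the edge of the threshold: it was past it under 2 of 9 other ways of processing and not under the other 7, with adjusted p between 0.0058 and 0.125, and with normexp background correction the mean ratio was 0.74. In KD1 vs WT the mean was -1.53 ± 0.03 (SE 0.30), or 2.89-fold lower in KD1, with an adjusted p of 0.0731, and with normexp the mean was -0.65. That comparison called 1.09% of tested probes and no member. The unadjusted limma p was 0.0014 for PDGFA and 0.0596 for PDGFRB. In KD1 vs CON the mean was 0.06 ± 0.69 (SE 0.30) with an adjusted p of 0.961, beside a background of 1.81% of probes called. No member probe was called there, with an unadjusted limma p of 0.855 for PDGFA and 0.643 for PDGFRB.

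On the normalised log2 scale of single channels, the mean level of PDGFA was 7.76 ± 0.34 in WT, 6.27 ± 0.33 in KD1 and 6.06 ± 0.59 in CON (SD, n = 2 extracts). WT thus stood above the other two, and KD1 and CON, next to each other in this order, differed by less than their spread. The extracts of WT were at 7.52 and 7.997, those of KD1 at 6.03 and 6.50, and those of CON at 6.48 and 5.65. Both WT extracts lay above all 4 extracts of the clones, while the KD1 and CON extracts overlapped.

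**Figure D2:**
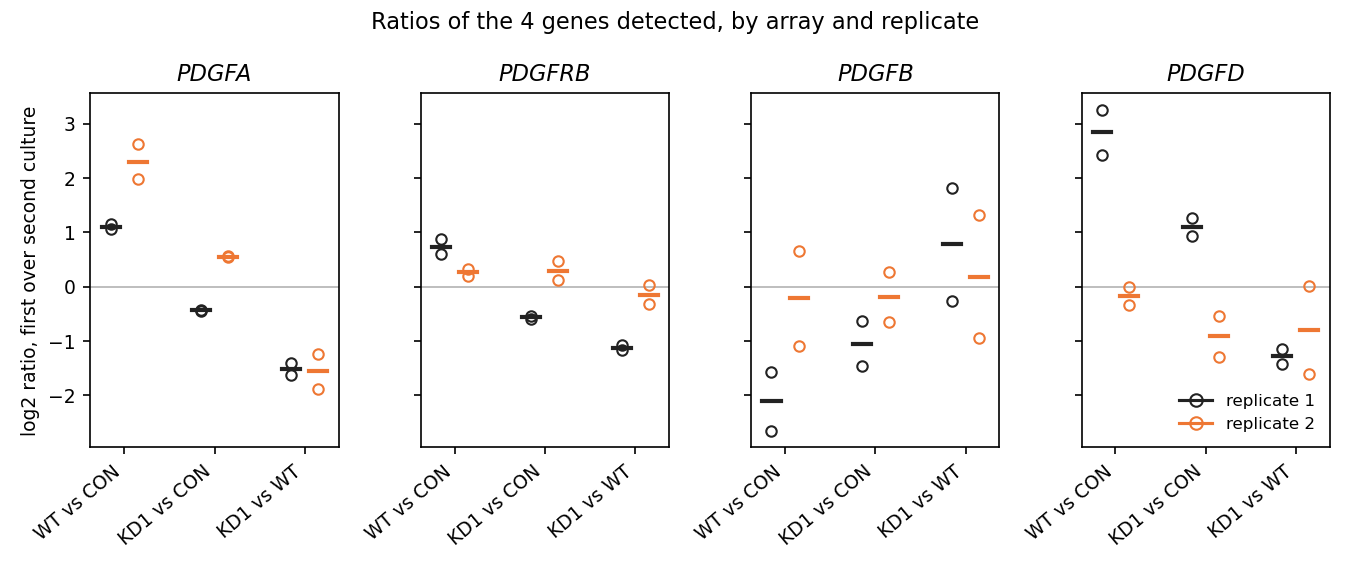
Log2 ratio of the first over the second culture for PDGFA, PDGFRB, PDGFB and PDGFD, with each array as an open circle and the mean of the 2 dye orientations of a replicate as a bar. PDGFA lay above 0 on all arrays of WT vs CON and below 0 on all arrays of KD1 vs WT, while the replicates of PDGFD in WT vs CON stood at 2.84 and -0.16.

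PDGFB was measurable mainly in one dye. In Cy3 the probe exceeded background clearly on 12 of 12 arrays and in Cy5 on 2 of 12, and its signal ran from 1.76 to 22.3 scanner units. In replicates 1 and 2, the log2 ratio of WT to CON was -2.11 and -0.21, that of KD1 to CON -1.05 and -0.19, and that of KD1 to WT 0.78 and 0.18. Both replicates had the same sign in each comparison. On the normalised log2 scale of single channels the mean was 4.77 ± 0.56 in CON, 4.18 ± 0.35 in KD1 and 3.57 ± 0.58 in WT, and WT was lowest in both replicates, while KD1 was below CON in replicate 1 (3.93 and 5.17) but not in replicate 2 (4.43 and 4.38). The dye orientations of a replicate lay far apart, however, and in KD1 vs WT the arrays ran from -0.95 to 1.82. PDGFB did not pass the filter in any comparison, so that it was not tested, and neighbours in its order differed by about the spread of the extracts.

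PDGFD, whose protein has to be cleaved before it can bind PDGFRB, was well above background on 7 of 8 arrays of WT, 4 of 8 of CON and 2 of 8 of KD1. WT over CON was 2.84 in replicate 1 and -0.16 in replicate 2. KD1 over WT was -1.28 and -0.80, and KD1 over CON 1.09 and -0.92. The 2 CON extracts stood apart, at 2.43 and 4.995 on the normalised log2 scale, whereas those of WT were at 4.92 and 4.71 and those of KD1 at 3.58 and 3.71. KD1 lay below WT in both replicates, no order of CON against the others held in both, and none of this was tested because the probe did not pass the filter.

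Among the receptors, PDGFRB alone was measured clearly, and its level did not differ between the cultures beyond the threshold of the test. In replicates 1 and 2, the log2 ratio of WT to CON was 0.74 and 0.26, that of KD1 to CON -0.56 and 0.29, and that of KD1 to WT -1.12 and -0.15. In the same order, the means were 0.50 ± 0.33, -0.13 ± 0.61 and -0.64 ± 0.68 (SD, n = 2), with limma standard errors of 0.29, 0.28 and 0.28 and adjusted p of 0.432, 0.873 and 0.313. None passed the threshold, and none did under any of the 9 alternatives.

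The 2 replicates of KD1 differed in PDGFRB. KD1 extracts stood at 7.24 and 8.05 on the normalised log2 scale, and those of CON at 7.78 and 7.76 and those of WT at 8.46 and 8.18. WT was highest (8.32 ± 0.20), above CON (7.77 ± 0.01), and KD1 (7.64 ± 0.57) was lower than CON in replicate 1 and higher than CON in replicate 2. The arrays of KD1 replicates 1 and 2 were on separate slides, so that the slide and the replicate cannot be told apart here.

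PDGFRA was read by 2 probes, of which one lies near the end of the gene and the other on a shorter transcript. The signal of the brighter one ran from -2.41 to 1.78 scanner units around a median of -0.15, and that of the other from -2.88 to 1.80. Neither was above the negative controls on any of 12 arrays, in WT, CON or KD1. A level of PDGFRA transcript was thus not detectable here, in cells with the fusion at its usual level as in the knockdown clone, and a difference between cultures could not be measured.

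KIT was printed in 10 copies on each array, which gave a closer look at a dim gene than for any other member. On most arrays few of these spots were positive and significant over their local background: 0 to 5 of the 7 to 10 usable spots a channel outside replicate 2 of WT. In WT replicate 2, 9 of 10 spots were positive and significant in Cy3 on both of its Cy3 arrays, with means of 3.32 and 2.86 scanner units. In Cy5 the same extract had 3 of 10 and 1 of 8 such spots, with means of 1.19 and 0.41. The extract of WT replicate 2 was therefore higher than the others in Cy3 on separate arrays, while WT replicate 1 had 1 of 10 spots in Cy3 on each of its arrays, with means of 0.40 and -0.25. Only 1 spot was well above background on each of the arrays in question, and the probe passed the negative control limit on 1 of 12 arrays, the one on which that limit was lowest (1.81 in Cy3). KIT was not tested, and the difference within WT rests on one extract.

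KDR and FLT1 had several probes, none of them well above background. The brighter KDR probe, at chr4:55640154-55640213, ran from 0.24 to 6.15 scanner units and was positive and significant in 17 of 24 channels, by the weaker of the scanner's tests. The second, which crosses the intron and is printed above, ran from -1.59 to 4.05 and was positive and significant in 8. Both were below the negative controls on all arrays. For FLT1, the highest signal of any of 3 probes was 2.31. The brightest FLT1 probe, designed on the transcript variant of the soluble receptor, was positive and significant in 3 of 24 channels, all of CON, and the other 2 in none.

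The study's fold criteria were applied with a detection rule of signal above the negative controls on every KD1 array. The study's text asks for such signal in at least 1 channel and does not name every array. A mean change of at least 2-fold in one direction was required in both KD1 comparisons, with one direction on all 8 arrays. By these rules 0 of 8 members qualified. Of the members, only PDGFA and PDGFRB were above the negative controls on all KD1 arrays, so that the others could not qualify under this detection rule. PDGFRL, which the study lists as lowered in KD1, was not above the negative controls on all of these arrays either. Among the 12396 genes with a probe above the negative controls on all of these arrays, 220 qualified (1.77%).

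The transcripts closest to PDGFA in their pattern were found over 12387 genes that were above the negative controls on all arrays, by the root mean square difference over the 6 replicate log2 ratios. They were COL27A1, which encodes a fibrillar collagen, DOK3, an adaptor protein, RASSF2, a Ras association domain protein, FGFR3, a fibroblast growth factor receptor, and LFNG, a glycosyltransferase that modifies Notch. Their differences from PDGFA were 0.37, 0.44, 0.47, 0.50 and 0.53. All 5 were higher in WT than in CON and lower in KD1 than in WT in both replicates, which follows from how they were chosen.

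Outside the members, the ligand of KIT gave the largest difference among the ligands tested. KITLG, stem cell factor, had WT over CON log2 ratios of 3.12 and 2.52 (mean 2.82, SE 0.27, adjusted p 0.00571) and KD1 over CON ratios of 3.10 and 1.99 (mean 2.55, SE 0.27, adjusted p 0.00554). KD1 over WT was -0.28 and -0.35, with an adjusted p of 0.611. CON was thus low and WT and KD1 were near each other, and CON was still well above background on 7 of 8 arrays. These values are of the brightest of 3 KITLG probes; the others were too dim to be tested. With normexp background correction the means were 1.00 and 0.71 and neither was called, and with median centring KD1 vs CON was 1.58 and not called.

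Of 9 other ligands of these receptors and their relatives, 7 were tested in KD1 vs CON and 8 in each of the other comparisons. KITLG alone was called, in both comparisons with CON, and no ligand was called between KD1 and WT. For KD1 vs CON the median log2 ratio of those tested was -0.02, beside -0.01 for all tested probes. It was -0.13 beside 0.01 for KD1 vs WT, and -0.11 beside -0.03 for WT vs CON. PDGFC, a PDGF of the same activation type as PDGF-D, was lower in KD1 on all 8 arrays, at -0.84 and -0.81 against CON and -0.85 and -1.12 against WT, and neither comparison passed the threshold (adjusted p 0.0898 and 0.0748). VEGFA, the main ligand of KDR, had KD1 over WT ratios of 0.64 and 1.60 (adjusted p 0.136) and KD1 over CON ratios of -0.02 and 1.15 (adjusted p 0.386). FIGF, which encodes VEGF-D, was not well above background in any channel.

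**Figure D3:**
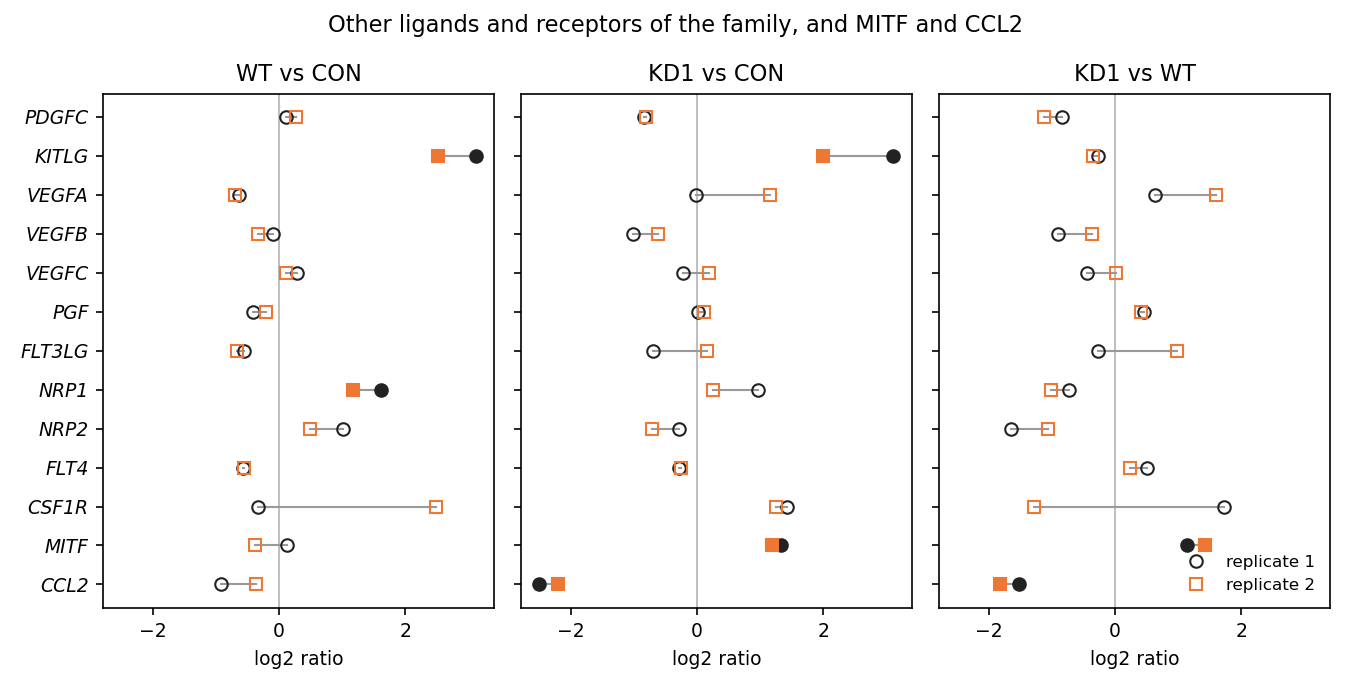
Log2 ratio of each replicate for ligands and receptors related to the members, and for MITF and CCL2, in the 3 comparisons on 1 scale. Filled symbols mark a limma adjusted p under 0.05. KITLG lay above 1.9 in both replicates of both comparisons against CON and near 0 in KD1 vs WT.

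Of 6 related receptors and coreceptors, 1 was called, in WT vs CON, where 5 were tested and 1.42% of all tested probes were called. NRP1, a coreceptor that binds VEGF together with KDR, was higher in WT than in CON, by 1.62 and 1.18 (mean 1.40, SE 0.24, adjusted p 0.0443), and was called neither between KD1 and CON (0.97 and 0.25, adjusted p 0.235) nor between KD1 and WT (-0.72 and -1.01, adjusted p 0.138). A second NRP1 probe was also called in WT vs CON, at 2.52 and 2.19, and the third was not, at 0.33 and 0.90. In KD1 vs CON the second probe had 1.92 and 0.81 and was just short of the threshold (limma adjusted p 0.0530). The third, not tested there, had 0.99 and 0.06. The call of the brightest probe was kept under 3 of 9 alternatives. NRP2, the related coreceptor, had KD1 over WT ratios of -1.64 and -1.06, with an adjusted p of 0.0517. PDGFRL, a secreted protein similar to the PDGF receptors, was not well above background on any of the 8 arrays of KD1, and it was so on 8 of 8 arrays of CON and 5 of 8 of WT. It was at least 2.60-fold higher in CON than in KD1, all 4 arrays of CON in that comparison having measured it, and at least 2.26-fold higher in WT, which was measured on 2 of 4. These are bounds, set against the dimmest signal that counted as well above background on each array, and PDGFRL did not pass the filter for a test in either KD1 comparison. CSF1R, the receptor of colony stimulating factor, which lies next to PDGFRB, had a KD1 over CON ratio of 1.43 and 1.25 and not a single direction elsewhere, since WT over CON was -0.34 and 2.50.

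None of the proteins that process or bind the ligands was called, among FURIN, PLAT, PLAU, ST14 and SPARC, of which 4 were tested in KD1 vs CON and all 5 in the other comparisons. The 26 adaptors and membrane signalling proteins, such as GRB2, SHC1, PLCG1 and the subunits of phosphoinositide 3-kinase, gave 0 calls among the 23 that were tested between KD1 and CON and the 25 tested in either comparison with WT. Their median log2 ratio was 0.10 for KD1 vs CON, 0.09 for KD1 vs WT and -0.05 for WT vs CON. Of 18 downstream kinases and transcription factors, 17 were not called in any comparison. The shares of all tested probes called were 1.81% for KD1 vs CON, 1.09% for KD1 vs WT and 1.42% for WT vs CON.

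The exception was MITF, a transcription factor best known in melanocytes and mast cells, where it acts downstream of KIT. It was higher in KD1, by 1.33 and 1.19 against CON (mean 1.26, SE 0.21, adjusted p 0.0336) and by 1.14 and 1.43 against WT (mean 1.28, SE 0.21, adjusted p 0.0472), and it did not differ in one direction between WT and CON (0.12 and -0.38). A second MITF probe was called in both KD1 comparisons as well, with means of 1.24 and 1.70. Of the other 2 MITF probes, one had means of 0.89 against CON, where it was not tested, and 1.05 against WT (adjusted p 0.0754), and the other, not tested in either comparison, had 0.03 and 0.27. The calls of the brightest probe were kept under 4 and 3 of 9 alternatives.

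Of 15 early genes named for their response to PDGF or VEGF, 14 were tested in each KD1 comparison and 1 was called in each, CCL2. CCL2 encodes a chemokine that is induced by PDGF in fibroblasts. It was lower in KD1 than in CON, at -2.51 and -2.21 (mean -2.36, SE 0.21, adjusted p 0.00296), a call kept under all 9 alternatives. Against WT it was -1.52 and -1.82 (mean -1.67, SE 0.22, adjusted p 0.0215), kept under 5 of 9. WT over CON was -0.92 and -0.36 and was not called. The rest of the list, which includes FOS, EGR1, JUN and the DUSP and SPRY genes, was not called, and the median of the list was 0.17 against CON and 0.35 against WT.

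PDGFRA, KIT and KDR lie beside each other on chromosome 4, and the genes around them were measured where they themselves were not. Within 2000000 bases of the PDGFRA probe, 13 genes were tested in KD1 vs CON and none was called, with a median log2 ratio of 0.19 and a range from -0.09 to 0.66. In KD1 vs WT 14 were tested, none was called, and the median was 0.25. FIP1L1, which is placed before PDGFRA, had mean KD1 ratios of 0.41 to CON and 0.20 to WT, and CHIC2, also before PDGFRA, had 0.37 and 0.81. CLOCK and TMEM165, beyond KDR, had 0.12 and -0.08 in KD1 vs CON. NMU, also beyond KDR, did not pass the filter in KD1 vs CON and is not in that range, but stood at 2.47 and 2.34. In KD1 vs WT it was tested, and its replicates were 3.27 and -0.58 (limma adjusted p 0.431). Around KIT and KDR 16 and 17 genes were tested in KD1 vs CON, and none was called in any comparison. Around PDGFA, the median of 25 tested neighbours in KD1 vs WT was -0.21 against 0.01 for all tested probes, and 17 lay below 0. In WT vs CON the median of 29 was 0.22 against -0.03, and 8 lay below 0. In KD1 vs CON it was -0.02 against -0.01. In KD1 vs WT 2 of the 25 were called, both lower in KD1, beside 1.09% of all tested probes. They were MICALL2 (mean -2.18, limma adjusted p 0.00909, kept under 8 of 9 alternatives) and MAFK (mean -1.68, adjusted p 0.0245), named here after their values were seen. The call of MAFK was kept under 4 of 9 alternatives, and its mean was -1.04 with normexp.

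Around FLT1 on chromosome 13, in contrast, 13 of 13 tested neighbours had a mean KD1 over CON ratio above 0, from 0.03 to 1.28, with a median of 0.62 against -0.01 for all tested probes. In WT vs CON the median of 16 tested neighbours was 0.51 against -0.03, and 3 of them lay below 0. 1 of these genes was called, SLC7A1, an amino acid transporter, in KD1 vs CON (mean 1.28, adjusted p 0.0324, kept under 4 of 9 alternatives), named here after its value was seen.

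**Figure D4:**
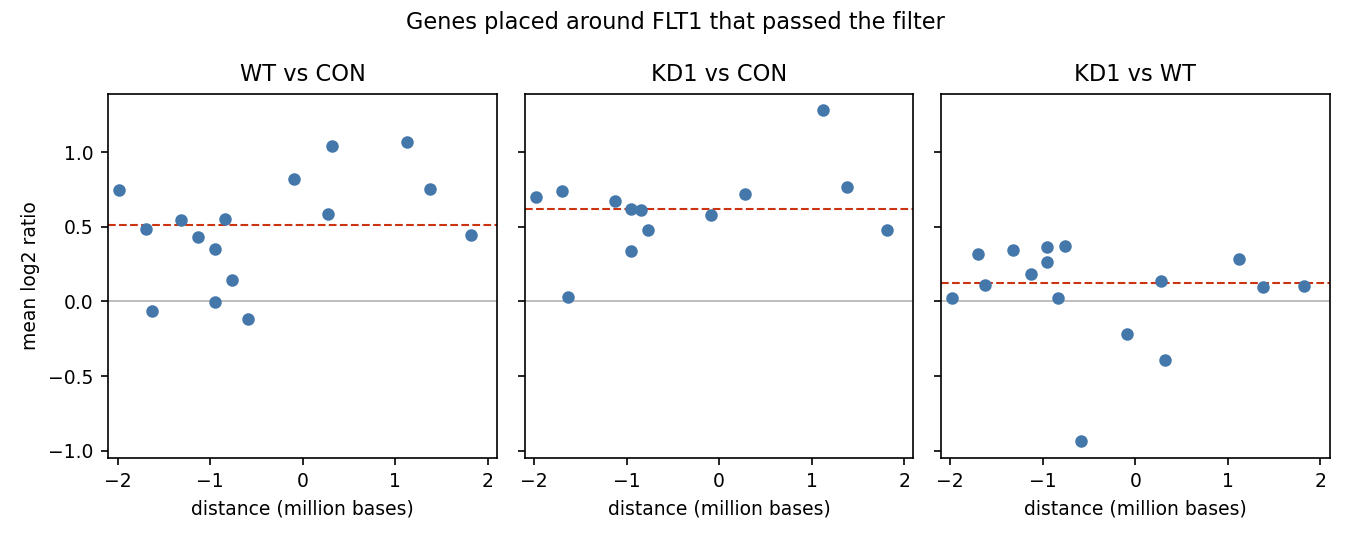
Mean log2 ratio of the genes within 2000000 bases of the FLT1 probe that passed the filter, against their distance from that probe, for the 3 comparisons. The dashed line is the median, at 0.51 for WT vs CON, 0.62 for KD1 vs CON and 0.13 for KD1 vs WT.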

How the data were processed

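The members and the gene lists were chosen with earlier results of these data known. The authors deposited Agilent Feature Extraction 10.5.1.1 scanner files, which hold spot intensity in Cy5 and Cy3, and LogRatio, a log10 ratio of the processed, background-subtracted and dye-normalized signals. The deposited series table holds log2 ratios already turned to the first culture over the second, matching the scanner ratio to within 5e-06, with a median of 0 per array, and it was used as an alternative. Here the processed signals of the dyes were divided, put on the log2 scale and turned to the named direction, spots flagged as outliers were dropped, spots of a probe were averaged, and the 2 dye orientations of a replicate were averaged. A probe entered the test of a comparison where, on each of the 4 arrays, at least 1 channel had a background-subtracted signal over the negative control limit (their 99th percentile). limma 3.58.1 in R 4.3.3 was fitted to the 6 replicate values with 1 coefficient per comparison and 2 residual degrees of freedom, since the 3 ratios of a replicate come from the same 3 extracts, with Benjamini-Hochberg adjustment over all tested probes and a threshold of 0.05. Probes without a value on an array were left out. Where a gene had several probes, the brightest over 24 channels stood for it. Levels came from separate-channel values normalised across arrays (Aquantile), averaged over the 4 arrays of an extract. The named genes were the members, any list gene with a call, ligands and related receptors, the 5 genes nearest to a called member, and neighbours within 2000000 bases. The test was checked on simulated data. P-values rest on the spread between replicate extracts of the same cultures, with a single clone for each shRNA. For each probe limma pooled this spread over the 3 comparisons and moderated it toward that of all tested probes. The standard errors therefore do not follow from the SD of 1 comparison. The 2 extracts of each culture limit the precision, since the arrays hybridise the same extracts again. 1 slide held every WT vs CON array, and for the KD1 comparisons each replicate had its own slide, so that replicate values are also within-slide values. Tables and figures were made in Python. The array file gives no exon or UTR annotation, and none of build NCBI36 was used here.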

Additional observations from a re-analysis of the deposited data

How the results depend on the processing

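The count of member probes called was 0 in KD1 vs CON under all alternatives and 0 in KD1 vs WT under all but one, the fit to 12 arrays with a dye effect per slide, which called 1 (PDGFA, adjusted p 0.0090). The 1 call in WT vs CON, PDGFA, fell to 0 with normexp, with median centring, with the series table, without a filter, with 3 residual degrees of freedom, with the replicate block and with separate-channel values, and it was kept by the stricter filter (adjusted p 0.0449) and the 12-array fit. No member met the fold criteria under any alternative.

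Over all probes, 396, 272 and 377 were called for KD1 vs CON, for KD1 vs WT and for WT vs CON. These counts were 42, 1 and 2 with normexp, 90, 51 and 71 with median centring, 253, 185 and 200 without a filter, 201, 126 and 114 with separate-channel values, and 3944, 4204 and 4265 in the 12-array fit, which takes dye swaps as replicates. The stricter filter gave 437 in KD1 vs WT, and 3 residual degrees of freedom gave 154 for KD1 vs WT and 233 for WT vs CON. The extract-level fit with the replicate block called 161, 111 and 131. Deviations from the culture means correlated at 0.54 between the CON and KD1 extracts of the same replicate number. For WT they correlated at -0.02 with CON and -0.07 with KD1, so that no pairing by replicate number was seen for WT.

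PDGFA changed sign in KD1 vs CON with normexp (-0.0244), as did PDGFRL in WT vs CON with normexp (0.0244) and median centring (0.0914). The cause of these changes was not tested. Without a replicate, PDGFA stood between 1.104 and 2.30 in WT vs CON, and the KD1 to WT ratio between -1.56 and -1.51, and over the other alternatives the latter ran from -1.59 to -0.65. Counting a channel as detected where the probe was positive and significant, an alternative chosen after seeing the data, gave 24 channels for PDGFB in place of 14, 22 for PDGFD in place of 13 and 17 for KDR in place of 0. Dim signal limits what can be said of PDGFRA, KIT, KDR and FLT1.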

Other observations

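Around PDGFRB, C5orf62 was at least 53.7-fold higher in CON than in KD1 (limma adjusted p 4.03e-05), a bound because it was not well above background on any KD1 array of that comparison, and KD1 over WT was -6.50 and -5.49 (adjusted p 0.000153). The call against CON was kept under 9 of 9 alternatives and that against WT under 7 of 9, and the mean against WT was -1.77 with normexp. It lies at chr5:150156383-150156442 on build NCBI36, and it was named after its value was seen. Of the 27 tested neighbours of PDGFRB in KD1 vs CON it was the only one called, and their median was -0.14. MYOG, a myogenic transcription factor, was lower in WT than in CON, at log2 ratios of -1.96 and -1.49 (limma adjusted p 0.0183). KD1 over CON was also below 0 for MYOG, at -1.35 and -0.92, and did not pass the threshold (limma adjusted p 0.0505). MYH8, a perinatal myosin heavy chain, was higher in KD1 than in WT, at 2.50 and 4.20 (adjusted p 0.0273), a call kept under 3 of 9 alternatives, with a mean of 1.88 with normexp in place of 3.35. MS4A2, a mast cell receptor subunit, was at least 1.31-fold higher in CON than in WT (adjusted p 0.0209), a bound because no WT array of that comparison was well above background and 2 of 4 CON arrays were. The call was kept under 5 of 8 alternatives, and with median centring the ratio was 0. MS4A2 was well above background on 1 of 8 arrays of WT, 5 of 8 of CON and 4 of 8 of KD1.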
